A study of Mus musculus with 14 samples.

Results

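The genes described here are 10 genes known for their expression in fat cells, measured in mouse skeletal muscle: Adipoq, Lep, Retn, Cfd, Plin1, Plin4, Fabp4, Cidec, Lipe and Pparg. They were chosen by name, as genes typical of adipocytes, and each was found in the tables by its gene symbol. They are 10 of the 54532 genes in the count table, and all 10 are among the 15458 genes with enough counts to be tested. The study asked how overexpression of c-Myc in endothelial cells alters metabolism under a high-fat western diet (WD), and skeletal muscle RNA was sequenced in 14 libraries to compare diets and genotypes. All animals were FVB/N males that carried a tetracycline-regulated human c-Myc transgene. In the overexpressing mice (OE) the Cdh5 promoter drives the transactivator tTA in endothelium, so the transgene is meant for endothelial cells and not for muscle fibres or adipocytes. Control littermates (CT) lack tTA. Doxycycline chow, which keeps tTA silent, was withdrawn at 4 to 6 weeks of age in both genotypes, and the labels give 20 weeks on control diet (CTD) or WD. The groups are CT-CTD with 3 libraries, CT-WD with 3, OE-CTD with 4 and OE-WD with 4. A number after a group name is the replicate.

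Adipocytes store triglyceride in a single large lipid droplet coated by perilipins and CIDE proteins, hydrolyse it during fasting, and secrete hormones that act on muscle, liver and brain. In skeletal muscle, adipocytes lie between fibres and around vessels and nerves, and small amounts of fat can adhere to a dissected muscle. Myofibres hold droplets of their own and make some of the same proteins, and capillary endothelium makes Fabp4, so the 10 genes are not equally restricted to adipocytes.

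Levels are given in CPM, the reads of a gene scaled to a common library size by the TMM method, and the values of a group are listed in the order of its replicate numbers. Lengths differ between genes, so genes are compared with each other only in FPKM, which also divides by gene length. The summed counts of a library had a lowest, median and highest value of 24101226, 24807368 and 25054855 in CT-CTD and 21833839, 23814408 and 26518734 in CT-WD. The same values were 22083340, 24226483 and 28519159 in OE-CTD and 22033140, 26198262 and 27698046 among OE-WD libraries. A gene was called at a fold change over 1.5 with an adjusted p under 0.05 from edgeR, and counts at an unadjusted p under 0.05 with the same fold are given beside it. Each fold change carries its standard error.

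Some doubts bear on every comparison. Group sizes printed in the study match the labels only if the names CT-WD and OE-CTD are exchanged. With that exchange, the comparisons given here as genotypes would be of diets, and those given as diets would be of genotypes. The labels were kept, and values with the names exchanged are given as an alternative. The time on diet is stated in different ways. The tissue is given as soleus and gastrocnemius, without the muscle of each library. The labels also carry a code number for each library, whose meaning is not given: the 6 CT libraries have 6 different codes, 3 of the 4 OE-CTD libraries share 1 code, and all 4 OE-WD libraries share another. Libraries that share a code number differ in the characters before it, whose meaning is also not given. No code is found in both genotypes. Anything the code stands for cannot be told apart from group in the OE libraries, by diet or by genotype. The labels do not say whether libraries with the same code come from separate animals. If they do not, those libraries are not independent, and the standard errors and p-values do not allow for it. Mouse Myc lay between 3.06 and 13.3 CPM with overlapping groups, and the human transgene was not measured here.

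The libraries were muscle by their markers. All 11 listed muscle genes were tested, and on the FPKM scale Acta1 averaged 30565, Tnnt3 10511 and Atp2a1 9646. The 10 adipocyte genes together took between 0.0466% and 0.109% of a library's counts. Their summed level was 1069.9, 656 and 714 CPM in the CT-CTD libraries, 851, 989 and 886 CPM in the CT-WD libraries, 596, 596, 724 and 525 CPM in the OE-CTD libraries and 640.1, 669, 583 and 689.1 CPM in the OE-WD libraries. CT-CTD 1 was highest and OE-CTD 4 lowest, 2.04 times apart, and every CT-WD library was above every OE library. Plin4 and Fabp4 made up between 75.7% and 92.2% of that sum, so it mostly follows these 2 genes. The sum of Adipoq, Plin1 and Cidec, formed after the values were seen, differed more between libraries, from 8.98 CPM in CT-WD 3 to 81.0 CPM in CT-CTD 1. Bulk RNA was measured, so fewer adipocytes and less RNA per adipocyte cannot be told apart.

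A pair of control libraries stood apart and bears on much of what follows. In CT-CTD 1, Ucp1, the uncoupling protein of brown fat, reached 19.4 CPM from 490 counts, while OE-WD 1 had 2.84 CPM and the other 12 libraries at most 0.126 CPM. Fasn, the fatty acid synthase, stood at 404 CPM in CT-CTD 1 and between 12.003 and 75.7 CPM elsewhere. Cyp2e1, a cytochrome P450 listed among adipocyte-enriched genes, stood at 69.0 CPM in CT-CTD 1, 45.5 CPM in CT-WD 1 and between 1.53 and 9.69 CPM in the other libraries. These libraries share the replicate number 1 and also had the most Cfd. Their codes are adjoining numbers, apart from the run of 4 numbers carried by the other CT libraries, and the part of whatever the codes stand for was not tested. CT-WD 1 had 15.3 CPM of Adipoq beside 3.87 and 1.78 CPM in CT-WD 2 and 3. The leading counts below are therefore also given without both CT libraries numbered 1, a choice made after seeing the data.

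The OE libraries numbered 4 also stood apart, over all genes. Between the counts of OE-CTD 4 and those of the other OE-CTD libraries the chi-square per degree of freedom was 35.6 to 41.2, beside 7.50 to 10.2 among the others. For OE-WD 4 it was 37.2 to 40.4, beside 8.17 to 14.5, and in pairs of CT libraries of 1 group 16.1 to 48.1. The TMM factors of OE-CTD 4 and OE-WD 4 were the lowest of the 14, at 0.888 and 0.899, and both libraries had the least Cfd and Fabp4 of their groups. Skeletal muscle markers summed to 178859, 183900 and 170841 CPM in the CT-CTD libraries, 169183, 200291 and 182157 CPM in the CT-WD libraries, 161332, 155284, 160658 and 213683 CPM in the OE-CTD libraries and 172603, 166783, 159138 and 218380 CPM in the OE-WD libraries. OE-WD 4 was the highest of the 14 and OE-CTD 4 next. Across genes the departures of OE-CTD 4 and OE-WD 4 from their group means had a correlation of 0.338, and those of CT-CTD 1 and CT-WD 1 of 0.385. OE-CTD 4 is the 1 OE-CTD library with a code number of its own. OE-WD 4 has the code number of the other OE-WD libraries, with different characters before it. What these libraries share, and the part of the code, was not tested. Without both OE libraries numbered 4, a fit added after seeing the data, 0 of the 10 genes were called in any comparison, beside 2.21% of all genes for the genotypes on control diet, 0.026% for the genotypes on western diet, and 0%, 0% and 0% for the diets in CT, the diets in OE and the interaction. The unadjusted counts were 2 in OE-WD against CT-WD (Lep and Plin4) and 1 in OE-CTD against CT-CTD (Lep), where 5.95% and 8.19% of all genes were counted. For the diets in CT, the diets in OE and the interaction they were 0, beside 3.05%, 1.24% and 2.94%.

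Per length, the 10 genes covered a wide range in muscle. On the FPKM scale the mean over 14 libraries was 71.6 for Plin4, 52.5 for Fabp4, 39.2 for Cfd, 8.89 for Cidec, 8.59 for Lipe, 7.69 for Adipoq, 3.63 for Plin1, 2.52 for Lep, 1.49 for Pparg and 1.25 for Retn. Of the 9 neighbouring pairs in this order, Cfd exceeded Cidec and Adipoq exceeded Plin1 in 14 of 14 libraries and by more than 1 SD of the difference. In the other 7 pairs the mean difference was under 1 SD of the difference, and the order did not hold in all 14 libraries. No test was made of these differences. Cidec was above Lipe in 8 of 14 libraries and Lep above Pparg in 7 of 14. The relative spread over libraries also varied. The highest level was 73.0 times the lowest for Lep, 13.3 times for Retn, 12.6 times for Plin1, 10.1 times for Adipoq, 8.33 times for Cfd and 6.61 times for Cidec, but 2.77 times for Plin4, 2.61 times for Fabp4, 1.91 times for Pparg and 1.60 times for Lipe. The coefficient of variation was 94.4% for Lep and 13.5% for Lipe, where the median over the tested genes was 17.4%. Counts were low for some: the smallest library count was 8 for Lep, 11 for Retn and 40 for Adipoq, and in such libraries counting error adds to the spread.

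**Figure D1:**
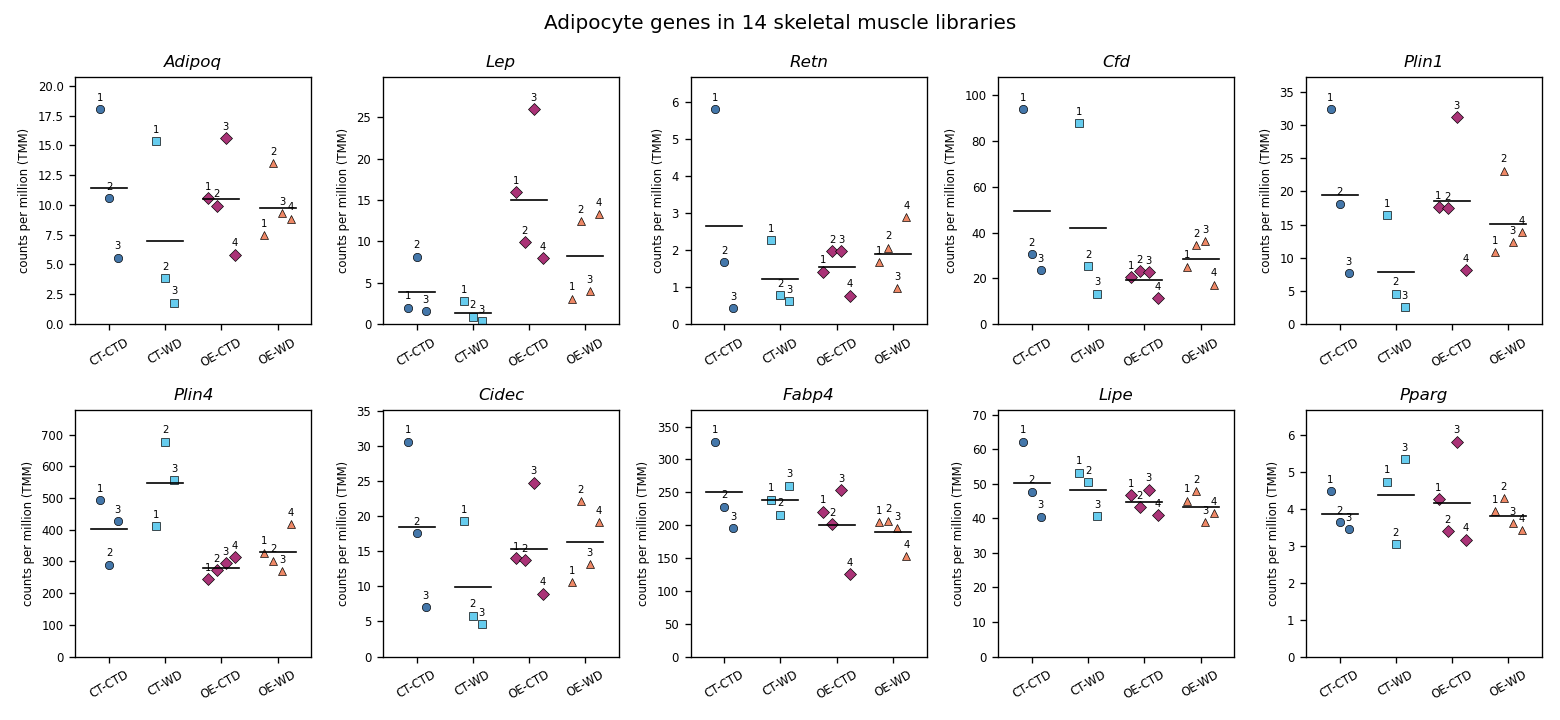
Each panel shows 1 of the 10 adipocyte genes in CPM (vertical axis), with 1 point per library, the replicate number above it and a bar at the group mean. CT-CTD 1 and CT-WD 1 are the highest of their groups for Adipoq, Plin1 and Cfd, and Lep is higher in all OE-WD libraries than in any CT-WD library.

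The adipokines are hormones and factors secreted by fat. Adipoq (ENSMUSG00000022878; GRCm38 chromosome 16, 23146536 to 23158028 on the plus strand) encodes adiponectin, a hormone that raises fatty acid oxidation in muscle and is made almost wholly by adipocytes. The CT-CTD libraries held 18.0, 10.6 and 5.56 CPM, and the CT-WD libraries 15.3, 3.87 and 1.78 CPM. Levels reached 10.54, 9.93, 15.6 and 5.82 CPM in the OE-CTD libraries and 7.47, 13.5, 9.32 and 8.84 CPM in the OE-WD libraries. CT-CTD 1 was highest, CT-WD 2 and 3 were the lowest of the 14, and the groups overlapped in every comparison. The group means (± SD) were 11.4 ± 6.28 CPM in CT-CTD, 6.99 ± 7.30 CPM in CT-WD, 10.48 ± 4.02 CPM in OE-CTD and 9.78 ± 2.60 CPM in OE-WD.

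Lep (ENSMUSG00000059201; chromosome 6, 29060220 to 29073877 on the plus strand) encodes leptin, the hormone that signals fat stores to the brain. In the CT-CTD libraries it stood at 1.98, 8.16 and 1.55 CPM, and in the CT-WD libraries at 2.78, 0.870 and 0.356 CPM. The OE-CTD libraries had 15.9, 9.86, 26.0 and 7.96 CPM, and the OE-WD libraries had 3.07, 12.4, 3.96 and 13.3 CPM. Every OE-WD library was above every CT-WD library. On control diet CT-CTD 2 reached into the OE-CTD range while CT-CTD 1 and 3 lay below it. The CT-WD values rest on 77, 18 and 8 counts. Lep had group means of 3.89 ± 3.70 CPM in CT-CTD, 1.34 ± 1.28 CPM in CT-WD, 14.9 ± 8.11 CPM in OE-CTD and 8.18 ± 5.41 CPM in OE-WD.

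Cfd (ENSMUSG00000061780; chromosome 10, 79890853 to 79892655 on the plus strand) encodes adipsin, the complement factor D protease that fat cells secrete. The CT-CTD libraries had 94.0, 30.5 and 23.6 CPM and the CT-WD libraries had 87.9, 25.3 and 13.2 CPM. Levels were 20.5, 23.1, 22.6 and 11.3 CPM in the OE-CTD libraries and 25.1, 34.4, 36.3 and 17.2 CPM in the OE-WD libraries. CT-CTD 1 and CT-WD 1 exceeded all other libraries, and each OE-CTD library was below each CT-CTD library, by a small margin for OE-CTD 2 against CT-CTD 3. Retn (ENSMUSG00000012705; chromosome 8, 3655770 to 3660110 on the plus strand) encodes resistin, secreted by mouse adipocytes and known to oppose insulin. It lay between 0.437 CPM in CT-CTD 3 and 5.81 CPM in CT-CTD 1, with overlap in all comparisons and group means of 2.64 ± 2.82 CPM in CT-CTD, 1.22 ± 0.915 CPM in CT-WD, 1.54 ± 0.577 CPM in OE-CTD and 1.90 ± 0.799 CPM in OE-WD.

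The droplet coat genes split in level and pattern. Plin1 (ENSMUSG00000030546; chromosome 7, 79720218 to 79732903 on the minus strand) encodes perilipin 1, which coats the adipocyte droplet and gates the access of lipases. It stood at 32.4, 18.2 and 7.66 CPM in the CT-CTD libraries and 16.4, 4.59 and 2.58 CPM in the CT-WD libraries, and at 17.6, 17.5, 31.2 and 8.11 CPM in the OE-CTD libraries and 10.8, 23.1, 12.3 and 13.9 CPM in the OE-WD libraries. As for Adipoq, CT-WD 2 and 3 were lowest and CT-CTD 1 was highest. Cidec (ENSMUSG00000030278; chromosome 6, 113424634 to 113435760 on the minus strand) encodes a droplet protein that promotes fusion into large droplets. Its lowest level was 4.62 CPM in CT-WD 3 and its highest 30.6 CPM in CT-CTD 1, with group means of 18.4 ± 11.8 CPM in CT-CTD, 9.91 ± 8.16 CPM in CT-WD, 15.4 ± 6.67 CPM in OE-CTD and 16.3 ± 5.29 CPM in OE-WD.

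Plin4 (ENSMUSG00000002831; chromosome 17, 56100591 to 56109803 on the minus strand) encodes perilipin 4, which coats small nascent droplets and is also made in muscle fibres. It stood at 494, 289 and 428 CPM in the CT-CTD libraries and 411, 678 and 557 CPM in the CT-WD libraries. The OE-CTD libraries had 244, 272, 295 and 313 CPM and the OE-WD libraries had 328, 303, 269 and 417 CPM. CT-WD 2 was the highest of all, and CT-WD 1 was the lowest of its group, where it had the most Adipoq and Plin1. OE-WD 4 and CT-WD 1 lay close together, so the groups on western diet overlapped. The group means of Plin4 were 404 ± 104 CPM in CT-CTD, 549 ± 134 CPM in CT-WD, 281 ± 29.5 CPM in OE-CTD and 329 ± 63.1 CPM in OE-WD.

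Among the genes of fatty acid handling, Fabp4 (ENSMUSG00000062515; chromosome 3, 10204088 to 10208576 on the minus strand) encodes a fatty acid binding protein of adipocytes, capillary endothelium and macrophages. It lay between 125 CPM in OE-CTD 4 and 327 CPM in CT-CTD 1, with group means of 250.3 ± 68.3 CPM in CT-CTD, 238 ± 22.1 CPM in CT-WD, 200.1 ± 54.1 CPM in OE-CTD and 189.5 ± 25.3 CPM in OE-WD. Every OE-WD library was below every CT-WD library. Lipe (ENSMUSG00000003123; chromosome 7, 25379527 to 25398710 on the minus strand) encodes hormone-sensitive lipase, which hydrolyses diglyceride in fat and muscle. It varied least of the 10, from 39.0 to 62.2 CPM, and its groups overlapped throughout. The nuclear receptor Pparg (ENSMUSG00000000440; chromosome 6, 115360951 to 115490399 on the plus strand) drives adipocyte differentiation and activates many of the other 9 genes in fat. It ranged from 3.04 CPM in CT-WD 2 to 5.81 CPM in OE-CTD 3, again with overlapping groups. Exons of Plin4 share 17 bases with Hdgfl2 and those of Lipe share 918 bases with the antisense gene 4732471J01Rik, both on the opposite strand. Whether reads were counted by strand is not stated.

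Adipoq, Plin1 and Cidec moved together across libraries, and the other genes followed them less evenly. Plin1 followed Adipoq most closely over the 14 libraries, with a Pearson correlation of log2 CPM of 0.97 (Spearman 0.95), and Cidec nearly as closely, with 0.95 (Spearman 0.95). Without the 2 libraries farthest from the median of Adipoq, CT-WD 2 and 3, these were 0.94 and 0.94, and with group means removed 0.98 and 0.94. Retn, Cfd and Lipe were looser, at 0.77, 0.65 and 0.54 (Spearman 0.78, 0.53 and 0.65), and 0.80, 0.71 and 0.82 without CT-WD 2 and 3. After removal of group means they had 0.77, 0.92 and 0.79. For the other 4 genes the value rested on CT-WD 2 and 3, the libraries with the least Adipoq. Lep had 0.67 with Adipoq (Spearman 0.51) and 0.19 without them. Fabp4 had 0.21 (Spearman 0.45) and 0.78 without them, and Pparg had 0.20 (Spearman 0.53) and 0.79. Plin4 had -0.51 (Spearman -0.40), which turned to 0.10 without them. After removal of group means the values of Lep, Fabp4, Pparg and Plin4 with Adipoq were 0.68, 0.46, 0.35 and -0.33. Plin4 ran opposite to Lep, at -0.79 (Spearman -0.74) and -0.62 without CT-WD 2 and 3, also the farthest from the median of Lep, and at -0.38 after removal of group means. The median over the 45 pairs of members was 0.37. These values describe 14 libraries that share 4 groups, and no test was made of them.

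**Figure D2:**
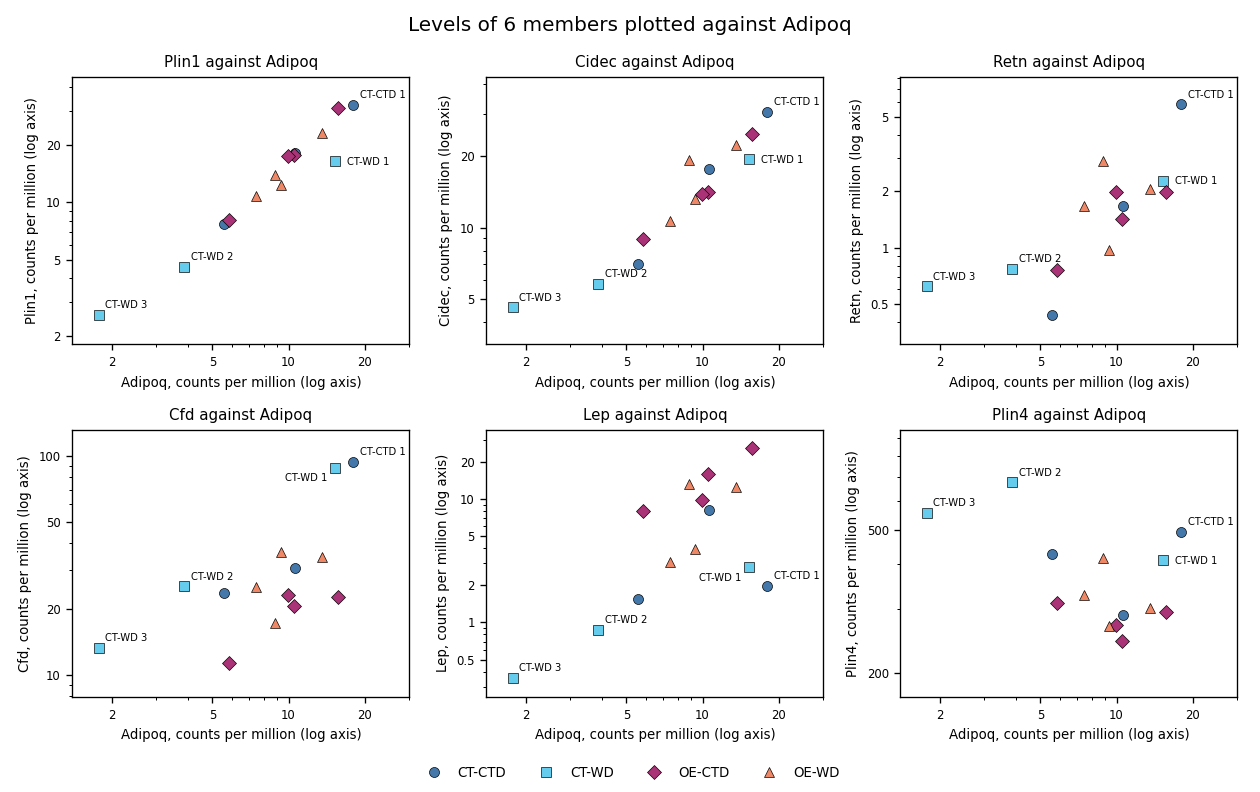
Levels of Plin1, Cidec, Retn, Cfd, Lep and Plin4 (vertical, CPM, log axis) are plotted against Adipoq (horizontal, CPM, log axis), with 1 point per library and a marker per group. Plin1 and Cidec lie close to a line, the OE-CTD libraries sit low for Cfd and high for Lep, and CT-WD 2 and 3 have the least Adipoq.

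Of 12736 other genes with a mean of at least 1 CPM, 140 had a correlation with Adipoq of 0.8 or more. The 12 most like it were Acp5, Slc1a5, Tusc5, Csk, Il1rl2, Tmem45b, Ifi27l2a, Gm4841, Car5b, Klhdc7a, Cebpa and Prkar2b, with Pearson values from 0.95 for Acp5 to 0.91 for Prkar2b over 14 libraries. Without CT-WD 2 and 3 the 12 values lay between 0.76 for Klhdc7a and 0.95 for Acp5. Cebpa, an adipogenic transcription factor, and Tusc5, also called Trarg1, a protein of glucose transporter trafficking in fat, are among the listed adipocyte-enriched genes.

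Within a library, the counts of Lep and Cfd per count of Adipoq do not depend on depth or scaling. These ratios were formed after the values were seen and are a description. Lep counts per Adipoq count were 0.110, 0.771 and 0.279 in the CT-CTD libraries, 0.182, 0.225 and 0.200 in the CT-WD libraries, 1.51, 0.993, 1.66 and 1.37 in the OE-CTD libraries and 0.411, 0.922, 0.425 and 1.5 in the OE-WD libraries. All OE-CTD ratios exceeded all CT-CTD ratios, and all OE-WD ratios exceeded all CT-WD ratios, CT-WD 1 included. Cfd counts per Adipoq count were 5.21, 2.89 and 4.24 in the CT-CTD libraries, 5.73, 6.54 and 7.42 in the CT-WD libraries, 1.95, 2.33, 1.45 and 1.94 in the OE-CTD libraries and 3.36, 2.55, 3.89 and 1.94 in the OE-WD libraries. Here the order was the opposite: each OE ratio lay below each CT ratio on the same diet. In CT-WD 3 the ratios rest on 8 counts of Lep and 40 of Adipoq. Ratios of Plin1, Cidec and Retn to Adipoq overlapped between the genotypes on both diets. The share of all genes whose ratio to Adipoq separates the genotypes was not computed.

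**Figure D3:**
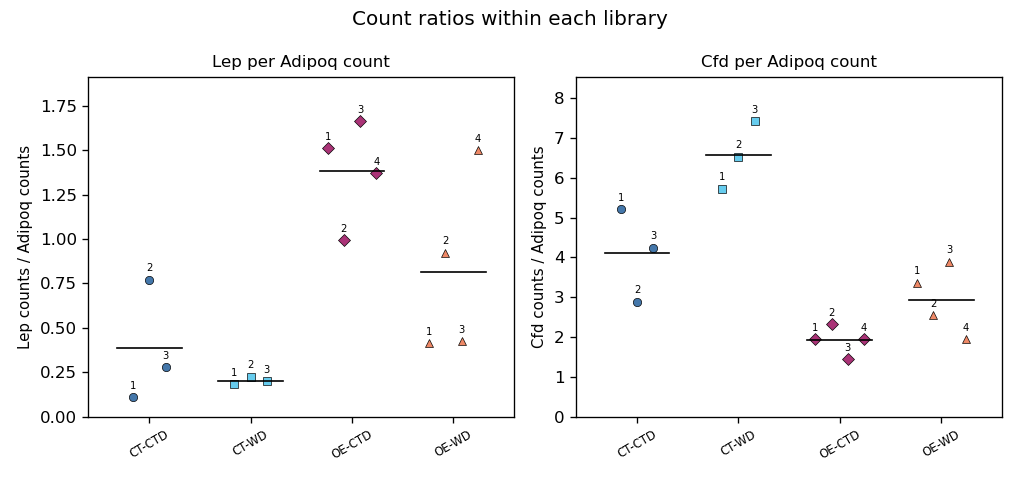
Counts of Lep (left) and Cfd (right) per count of Adipoq in each library (vertical axis, ratio), with the replicate number above each point and a bar at the group mean. On either diet the OE libraries are above the CT libraries for Lep and below them for Cfd. Ratios of Plin1, Cidec and Retn to Adipoq, which overlapped on either diet, are not shown.

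In control mice on western diet most adipocyte genes had lower mean levels than on control diet, but the libraries of the groups overlapped. CT-WD 2 and 3 had little Adipoq, Plin1 and Lep, whereas CT-WD 1 lay within the CT-CTD range for all 3. This comparison asks what the diet does in muscle of mice without the transactivator. EdgeR called 0 of 10 genes at the adjusted level, where 0% of all tested genes were called, and 0 of 10 without adjustment, where 3.05% were. DESeq2 and limma called 0 and 0 adjusted and 0 and 0 unadjusted, beside 0.201% and 0% of all genes adjusted and 3.12% and 0.666% unadjusted. The values were lower in 8 genes and higher in 2, with a median log2 fold change of -0.45, beside 0.0071 over all tested genes. Lep had the lowest value, -1.47 (standard error 0.801, adjusted p = 0.770), Plin1 had -1.28 (standard error 0.604, adjusted p = 0.682), and Plin4 had the highest, 0.44 (standard error 0.204, adjusted p = 0.675). Between the groups 0 of 10 genes had non-overlapping libraries, compared with 9.63% of all genes. Libraries were also taken in pairs by replicate number, a pairing that rests on the data alone. Adipoq, Cfd, Plin1 and Cidec were lower on western diet in every pair, 4 of 10 genes beside 14.9% of all genes. Higher in every pair were 0 of 10, beside 14.3%. The 4 genes vary together over libraries, with correlations with Adipoq of 0.97 for Plin1, 0.95 for Cidec and 0.65 for Cfd. They are therefore not separate results, and no test was made of this count. Leaving out 1 library at a time, Lep lay between -2.67 without CT-WD 1 and -0.34 without CT-CTD 2, Plin1 between -2.44 without CT-WD 1 and -0.70 without CT-CTD 1, and Plin4 between 0.25 without CT-CTD 2 and 0.61 without CT-WD 1.

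The CT diet result rested on CT-WD 1. Without it 7 of 10 genes passed the unadjusted level, beside 5.43% of all genes, and 0 the adjusted one, beside 0.259%. The 7 were Adipoq, Lep, Retn, Cfd, Plin1 and Cidec lower and Plin4 higher. The log2 fold change of Adipoq was then -2.02 and that of Plin1 -2.44, with adjusted p of 0.109 and 0.115. Over 24 alternatives, with the exchange of the names CT-WD and OE-CTD given apart, the adjusted p lay between 0.109 and 0.995 (0.949 with names exchanged) for Adipoq and between 0.115 and 0.981 (0.975 with names exchanged) for Plin1. Over all genes, 41 were called without CT-WD 1 and 0 with it. The unadjusted count was 1 without CT-CTD 1, when Cfd turned to 0.63 and Retn to 0.24, 4 without CT-CTD 3, 1 without OE-CTD 3 or without OE-CTD 4, and 5 without both CT libraries numbered 1. The shares of all genes were then 4.11%, 2.99%, 2.93%, 3.07% and 5.05%. Fitted with a term for the replicate number, which pairs the CT libraries, Plin1 passed the unadjusted level with -1.33 and an adjusted p of 0.543.

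In OE mice the libraries of the diets overlapped for all 10 genes, and none was called. This comparison asks what the diet does where c-Myc is overexpressed. Lep was below all OE-CTD libraries in OE-WD 1 and 3, Cfd was above all of them in OE-WD 1, 2 and 3 and neither diet stood apart for Adipoq or Plin1. EdgeR called 0 of 10 genes at the adjusted level, beside 0.00647% of all genes, and 0 of 10 unadjusted, beside 1.37%. DESeq2 and limma called 0 and 0 adjusted and 0 and 0 unadjusted, beside 0.00647% and 0.00647% of all genes adjusted and 1.34% and 0.201% unadjusted. The median log2 fold change was -0.062, beside 0.0048 over all tested genes, with 4 genes higher and 6 lower. Lep had -0.87 (standard error 0.577, adjusted p = 0.9999) and Cfd 0.54 (standard error 0.507, adjusted p = 0.9999). No gene of the 10 had separate groups, against 4.08% of all genes. None of the 14 single-library omissions brought any of the 10 past either level. The shares of all genes were then 0% to 0.013% adjusted and 1.23% to 1.78% unadjusted. Leaving out the doubted CT libraries, which are not in this comparison, also left both counts at 0, beside 0.00637% and 1.87% of all genes.

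On western diet, with the groups as labelled, OE muscle had more Lep and less Plin4 than CT muscle at the unadjusted level. Lep was higher in all 4 OE-WD libraries than in any CT-WD library, a fold of 5.87. Fabp4 was lower in all 4, with -0.33 (standard error 0.202, adjusted p = 0.436). Adipoq, Plin1 and Cidec stood above CT-WD 2 and 3 in every OE-WD library, while CT-WD 1 lay among or above the OE-WD libraries. The comparison asks what endothelial c-Myc does under the high-fat diet. EdgeR called 0 of 10 genes at the adjusted level, where 0.563% of all genes were called, and 2 of 10 without adjustment, where 5.74% were. DESeq2 called 2 adjusted, Lep and Plin4, and limma 0, and each called 2 unadjusted. Of all genes, 2% were called by DESeq2 and 0.194% by limma after adjustment, and 5.77% and 1.71% without it. Non-overlapping libraries were found for 2 of 10 genes, Lep and Fabp4, beside 11.6% of all genes. Lep had a value of 2.55 (standard error 0.753, adjusted p = 0.114) and Plin4 of -0.74 (standard error 0.189, adjusted p = 0.0799). DESeq2 gave adjusted p of 0.0415 and 0.00872. Over 24 alternatives the adjusted p of Lep lay between 0.000912 and 0.388 (0.9999 with names exchanged). That of Plin4 lay between 0.00144 and 0.320 (0.9999 with names exchanged). Both low ends came from the fit without a filter on low counts, which called 1.44% of 27899 genes, beside 0.563% in the main fit. With names exchanged Lep turned to -0.87 and Plin4 to 0.23, and the unadjusted count was 0, beside 1.37% of all genes. The median over the 10 was 0.16, beside 0.0056 over all tested genes, with 5 higher and 5 lower.

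The count on western diet also rested on CT-WD 1. Without it edgeR called 4 of 10 genes at the adjusted level, beside 5.72% of all genes, and 5 unadjusted, beside 11.8%. The log2 increase was 1.80 for Adipoq (adjusted p = 0.0316), 3.75 for Lep (0.0265) and 2.08 for Plin1 (0.0411), and Plin4 had -0.91 (0.00980). Cidec joined them at the unadjusted level with 1.65, and Cfd turned from -0.58 to 0.56. With all libraries the values were 0.46 (standard error 0.536, adjusted p = 0.707) for Adipoq, 0.91 (standard error 0.572, adjusted p = 0.450) for Plin1 and 0.70 (standard error 0.506, adjusted p = 0.520) for Cidec. Their adjusted p over the alternatives lay between 0.0172 and 0.997 (0.9999 with names exchanged), between 0.0244 and 0.826 (0.9999 with names exchanged) and between 0.0306 and 0.875 (0.9999 with names exchanged). The number of genes called over the whole table also moved, from 87 to 905. Without CT-WD 2, the highest in Plin4, Plin4 had -0.56 and the unadjusted count was 1, beside 4.56% of all genes. Without both CT libraries numbered 1 it was 5 adjusted, with Cidec, where 6.35% of all genes were called, and 6 unadjusted, with Cidec and Retn, where 12.2% were.

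On control diet, with the groups as labelled, OE muscle had more Lep and less Cfd than CT muscle at the unadjusted level. The OE-CTD libraries all had less Cfd than any CT-CTD library, a fold of 0.394 in the fit, and Lep was 3.85 times as high. Plin4 was also lower, -0.52 (standard error 0.189, adjusted p = 0.174), but by less than the required fold. The other 7 genes were called at neither level. EdgeR called 0 of 10 genes at the adjusted level, where 1.91% of all genes were called, and 2 of 10 without adjustment, where 7.12% were. DESeq2 and limma called 0 and 0 adjusted and 2 and 1 unadjusted, beside 3.29% and 0.757% of all genes adjusted and 7.32% and 2.15% unadjusted. Cfd was the 1 gene of 10 with non-overlapping libraries, beside 15.5% of all genes. The median log2 fold change was -0.21, beside -0.00070 over all tested genes, with 2 genes higher and 8 lower. Lep had 1.95 (standard error 0.676, adjusted p = 0.154) and Cfd -1.34 (standard error 0.538, adjusted p = 0.229). Across the alternatives these adjusted p lay between 0.00416 and 0.435 (0.770 with names exchanged) and between 0.0135 and 0.702 (0.970 with names exchanged). Their low ends also came from the fit without a filter on low counts, which called 2.04% of all genes here. With names exchanged Lep turned to -1.47 and Plin4 to 0.44, and the unadjusted count was 0, beside 3.05% of all genes. Cfd depended on CT-CTD 1: without it the value was -0.48 and the unadjusted count 1, Lep alone, beside 8.52% of all genes. Without CT-CTD 3 Lep had 1.56 and the genes counted were Retn and Cfd, beside 5.77%. Without CT-CTD 2 Lep had 3.08 and Plin4 joined, for a count of 3, beside 6.2%, and without OE-CTD 4 Lep was the 1 gene counted, beside 8.2%. Leaving out both CT libraries numbered 1 gave 0 adjusted and 1 unadjusted, Lep, where 3.5% and 9.37% of all genes were called. Without CT-CTD 1 the values of Adipoq, Plin1, Cidec and Retn turned positive, at 0.37, 0.52, 0.32 and 0.55.

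The diet by genotype interaction tests whether the diet difference in OE departs from that in CT. Most adipocyte genes had positive values, as their fitted diet difference was lower in CT than in OE. The largest was Retn with 1.37 (standard error 0.911, adjusted p = 0.892), then Plin1 with 0.97 (standard error 0.784, adjusted p = 0.915) and Cidec with 0.96 (standard error 0.702, adjusted p = 0.893). These values rested on the CT libraries numbered 1: without CT-CTD 1 they were 0.055, 0.39 and 0.38, and without CT-WD 1 2.21, 2.13 and 1.90. EdgeR called 0 of 10 genes, beside 0% of all genes, and 0 of 10 unadjusted, beside 2.7%. DESeq2 and limma called 0 and 0 adjusted and 0 and 0 unadjusted, beside 0.0194% and 0% of all genes adjusted and 2.81% and 0.867% unadjusted. The median was 0.59, beside -0.0057 over all tested genes, with 7 genes above 0. Without CT-WD 1 the unadjusted count was 5 (Adipoq, Retn, Cfd, Plin1 and Cidec), beside 4.91% of all genes, and the adjusted count 0, beside 0.00632%. Without CT-CTD 3 it was 1 (Retn), beside 2.76%, and without both CT libraries numbered 1 it was 4 unadjusted, beside 4.74%, and 0 adjusted, beside 0.00637%. The comparisons share libraries: CT-WD enters the CT diet comparison, the genotype comparison on western diet and the interaction, so their values for 1 gene are not independent.

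By role, the 4 adipokines had median log2 fold changes of -0.88, 0.10, 0.53, -0.44 and 0.68 in CT diet, OE diet, genotype on western diet, genotype on control diet and interaction, the order kept below. The 3 droplet coat genes had -0.87, 0.082, 0.70, -0.26 and 0.96, the 2 genes of fatty acid handling -0.065, -0.062, -0.24, -0.24 and 0.0031, and Pparg alone 0.18, -0.13, -0.20, 0.11 and -0.31. None of these role groups had a gene called at the adjusted level by edgeR, and the unadjusted calls are those named above. The medians over all tested genes lay between -0.0057 and 0.0071 in the 5 comparisons. The shares of all tested genes called, beside which the counts of the lists below stand, were 0%, 0.00647%, 0.563%, 1.91% and 0% adjusted and 3.05%, 1.37%, 5.74%, 7.12% and 2.7% unadjusted. Where a range of adjusted p over alternatives is given for a listed gene below, its low end came from the fit without a filter.

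Other adipocyte-enriched genes gave 1 call. Of 21 such genes, all tested, edgeR called 0 up and 1 down after adjustment over the 5 comparisons, namely Cyp2e1 in OE-CTD against CT-CTD, and unadjusted it called 1 up in OE-WD against CT-WD (Aoc3) and 1 up in the interaction (Thrsp), with 2 down in CT diet (Thrsp and Agpat2) and 3 down in OE-CTD against CT-CTD (Pck1, Thrsp and Cyp2e1). Thrsp stood at 47.8 CPM in CT-CTD 1 and between 6.02 and 12.3 CPM in the other 13 libraries. The medians were -0.46, -0.093, 0.27, -0.13 and 0.46. The value of Cyp2e1 was -3.22 (standard error 0.823, adjusted p = 0.0498), but -1.34 without CT-CTD 1 with an adjusted p of 0.347, and the adjusted p lay between 4.48e-05 and 0.347 (0.952 with names exchanged) over 24 alternatives. In all, the call was lost in 10 of 14 single-library omissions (CT-CTD 1 and 3, OE-CTD 1, 2, 3 and 4, OE-WD 1, 2, 3 and 4), with values from -3.63 to -1.34. The summed level of the 21 genes had a correlation with Adipoq of 0.78 (Spearman 0.72; 0.63 without CT-WD 2 and 3) over 14 libraries. The most abundant per length, Car3 with a mean of 644 FPKM and Gpd1 with 181 FPKM, are also genes of muscle fibres. Scd1, the stearoyl-CoA desaturase, averaged 86.4 FPKM and spanned 52.3 to 787 CPM.

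Genes of droplets and triglyceride outside the 10 gave few calls. Of 13 other droplet and lipolysis genes, 12 were tested and Cideb was not. EdgeR called 0 in every comparison, adjusted or unadjusted, and the medians were 0.070, -0.031, -0.011, 0.029 and -0.11. Their summed CPM ran against Adipoq at -0.81 (Spearman -0.75; -0.60 without CT-WD 2 and 3). Per length, Fitm1 at 173 FPKM and Pnpla2 at 144 FPKM were the most abundant. Of 11 triglyceride synthesis genes, 10 were tested. Lpin1, a phosphatidate phosphatase, fell in OE-WD against CT-WD by the adjusted rule, -0.71 (standard error 0.149, adjusted p = 0.0407). Unadjusted, 3 were lower in CT diet (Agpat2, Fasn and Acaca), 1 was lower in OE-CTD against CT-CTD and 1 was higher in the interaction, both Fasn, and the medians were -0.60, 0.065, 0.37, -0.29 and 0.56. The call of Lpin1 was lost in 9 of 14 single-library omissions (CT-CTD 3, CT-WD 2 and 3, OE-CTD 1, 2 and 3, OE-WD 2, 3 and 4), with values from -0.74 to -0.56, and its adjusted p over alternatives lay between 0.000427 and 0.214 (0.9999 with names exchanged).

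Of 7 genes of fatty acid uptake and binding, all tested, edgeR called 0 at the adjusted level, and unadjusted Angptl4 was higher in CT diet and lower in OE-WD against CT-WD. The medians were 0.034, -0.10, -0.051, 0.094 and -0.17. Fabp3, the muscle counterpart of Fabp4, averaged 1077 FPKM beside 52.5 FPKM for Fabp4. Of 13 adipogenic transcription factors, edgeR called 1 at the adjusted level, Srebf1, which controls lipid synthesis genes, in OE-WD against CT-WD with 0.91 (standard error 0.162, adjusted p = 0.0282). It missed the level in 5 of 14 single-library omissions (CT-WD 2 and 3, OE-WD 2, 3 and 4), with values from 0.70 to 0.92, and its adjusted p lay between 2.52e-05 and 0.158 (0.9999 with names exchanged) over alternatives. At the unadjusted level the calls were 2 up and 1 down in CT diet, 2 up and 2 down in OE-WD against CT-WD, 1 up in OE-CTD against CT-CTD and 1 up and 1 down in the interaction, and the medians were 0.14, 0.037, 0.16, 0.19 and -0.15. For 6 adipokine receptors edgeR called 0 in either way, with medians of -0.022, 0.048, 0.11, 0.15 and 0.040. Adipor1 was their most abundant gene per length at 74.6 FPKM, and Lepr, the leptin receptor, averaged 0.349 FPKM. Of 7 brown and beige fat genes, Ucp1 was not tested, 0 were called at the adjusted level, and Ppargc1a was higher in CT diet unadjusted. CT-CTD 1, the library with the most Ucp1, also had the most Cidea, 9.69 CPM beside 0.753 to 3.10 CPM elsewhere. It had the most Elovl3 too, 2.85 CPM, with 1.45 CPM next in CT-WD 1. The sum of the 7 genes was 125 CPM in CT-CTD 1 and highest in CT-WD 3, at 202 CPM. The medians of the brown and beige fat genes were 0.11, 0.35, 0.27, 0.27 and 0.24.

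Markers of other cells were examined beside the adipocyte genes. Fibro-adipogenic progenitors are the stromal cells from which muscle adipocytes derive. Of the genes listed for them, 7 of 7 were higher in OE-CTD than in CT-CTD. At the adjusted level 3 were called, beside 1.91% of all genes, and 5 unadjusted, beside 7.12%. Bulk RNA does not show whether progenitors or other cells made these transcripts. Col15a1 rose with 1.26 (standard error 0.238, adjusted p = 0.0132), Pi16 with 0.66 (standard error 0.163, adjusted p = 0.0425) and Cd34 with 0.60 (standard error 0.144, adjusted p = 0.0389). In OE-WD against CT-WD, Col15a1 was called with 1.22 (standard error 0.238, adjusted p = 0.0322), and Pdgfra was counted unadjusted up in CT diet and down in the interaction. The medians were 0.37, 0.071, 0.44, 0.78 and -0.31. The summed level was 351.6, 314 and 268 CPM in the CT-CTD libraries, 568, 334 and 328 CPM in the CT-WD libraries, 539, 635, 595 and 418 CPM in the OE-CTD libraries and 523, 787, 586 and 445 CPM in the OE-WD libraries. CT-WD 1 was the highest CT library here. Dcn was the most abundant at 49.3 FPKM, none of the 7 was at 0, and their sum had a correlation with Adipoq of 0.53 (Spearman 0.50; 0.38 without CT-WD 2 and 3). Col15a1 missed the adjusted level without CT-CTD 3 on control diet, at 1.14 with an adjusted p of 0.0862 in a range between 3.47e-06 and 0.0862 (0.995 with names exchanged) over alternatives. On western diet it missed the level in 5 of 14 single-library omissions (CT-WD 2 and 3, OE-WD 2, 3 and 4), with values from 1.01 to 1.31, with adjusted p over alternatives between 1.39e-05 and 0.158 (0.9999 with names exchanged). Cd34 missed it in 7 of 14 single-library omissions (CT-CTD 1, 2 and 3, OE-CTD 1, 2 and 3, OE-WD 3), with values from 0.53 to 0.70, and Pi16 in 8 of 14 single-library omissions (CT-CTD 1, 2 and 3, OE-CTD 1, 2 and 3, OE-WD 1 and 3), with values from 0.60 to 0.73. Their adjusted p over alternatives lay between 0.00222 and 0.162 (0.869 with names exchanged) and between 0.00183 and 0.170 (0.554 with names exchanged). The part of these cells in the levels of the 10 genes was not tested.

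Macrophage markers, which matter because Fabp4 is also made in macrophages, had 0 of 8 called at the adjusted level by edgeR and 6 of 8 higher unadjusted in OE-CTD than in CT-CTD, where the shares of all genes called were 1.91% and 7.12%. C1qa was counted unadjusted up in CT diet and down in the interaction. Their medians were 0.52, -0.12, 0.10, 0.84 and -0.69. The sum was 72.3, 43.2 and 38.2 CPM in the CT-CTD libraries, 114, 55.9 and 47.6 CPM in the CT-WD libraries, 73.8, 90.2, 117 and 72.5 CPM in the OE-CTD libraries and 68.2, 114, 68.1 and 72.6 CPM in the OE-WD libraries, with no marker at 0 and Lyz2 the most abundant at 23.3 FPKM. It was high in CT-CTD 1 and CT-WD 1 within their groups, as Adipoq was, and its correlation with Adipoq was 0.64 (Spearman 0.63; 0.62 without CT-WD 2 and 3). Endothelial markers, of the cell type with the transgene, had 0 of 10 called adjusted, and Cldn5 was counted unadjusted up in CT diet and down in the interaction. On either diet every OE library had a higher sum than every CT library: 373, 372 and 381 CPM in the CT-CTD libraries, 476, 478, 457 and 408 CPM in the OE-CTD libraries, 445, 407 and 407 CPM in the CT-WD libraries and 477, 485, 501 and 472 CPM in the OE-WD libraries. Tek in OE-CTD against CT-CTD, at 0.52 (standard error 0.110, adjusted p = 0.0232), and Cdh5 in OE-WD against CT-WD, at 0.46 (standard error 0.0905, adjusted p = 0.0322), had adjusted p under 0.05 but a fold below 1.5. The part of these cells in the 10 genes was not tested. Medians were 0.14, 0.055, 0.35, 0.31 and -0.063, and Cdh5 was the most abundant per length at 24.2 FPKM. Epidermal markers, which can enter with hair or skin, had 0 of 6 called adjusted. Unadjusted, Krt10 was higher in OE diet and Perp lower in OE-CTD against CT-CTD, and the medians were 0.71, 1.26, 0.37, -0.24 and 0.47. Their sum was 62.1, 15.6 and 22.8 CPM in the CT-CTD libraries, 109.7, 18.5 and 19.5 CPM in the CT-WD libraries, 24.3, 41.0, 43.4 and 9.19 CPM in the OE-CTD libraries and 24.8, 75.8, 118 and 43.1 CPM in the OE-WD libraries. CT-CTD 1 and CT-WD 1 again led their groups, OE-CTD 4 had 4 of the 6 at 0, CT-CTD 2 had 1, and Perp was the most abundant at 6.16 FPKM. The correlation of this sum was 0.60 (Spearman 0.61; 0.63 without CT-WD 2 and 3) with Adipoq. Whether macrophage or epidermal RNA bears on the adipocyte genes was not tested.

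The remaining lists had no calls. Skeletal muscle markers had 0 of 11 called by edgeR in either way, medians of 0.067, 0.0015, -0.028, 0.033 and -0.058, and a correlation of their sum with Adipoq of -0.38 (Spearman -0.42; -0.36 without CT-WD 2 and 3). Slow fibre genes had 0 of 7 called and medians of 0.14, -0.18, -0.024, 0.27 and -0.26, Schwann cell markers 0 of 5 and -0.14, -0.10, 0.15, 0.17 and -0.015, and blood markers 0 of 4 tested and 0.10, 0.13, -0.087, -0.033 and 0.019. Of 8 lymphocyte markers none had enough counts to be tested, with a highest library count of 8 for Cd79b.

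Promoter sequence is shown for Adipoq and Plin1, which moved most closely together, and for Lep, which differed most between genotypes as labelled. RefSeq windows on GRCm38.p6, from 250 bases before to 50 after the start of transcription, were available for 9 of the 10 genes, as 13 windows, and not for Fabp4. Motifs were searched on both strands: the TATA box TATAAA, present in 13.62% of 32851 windows of all genes, the CCAAT box CCAAT (37.41%), the nuclear receptor half-site AGGTCA (16.26%), the palindrome TTGCGCAA bound by C/EBP factors (0.1826%) and the E-box CACGTG bound by Myc with Max (7.15%). Capitals mark matches. The Adipoq window, chr16:23146286-23146585 on the plus strand, has 3 matches to CCAAT. The Plin1 window, chr7:79732727-79733026 on the minus strand, has none of the 5 motifs. The Lep window, chr6:29059971-29060270 on the plus strand, has the palindrome, which no other window of the 10 genes has. CCAAT was also found for Plin4 and Pparg, AGGTCA and TATAAA for Pparg alone, and CACGTG for Lipe alone. A match is a run of letters, and no binding was measured.
Adipoq: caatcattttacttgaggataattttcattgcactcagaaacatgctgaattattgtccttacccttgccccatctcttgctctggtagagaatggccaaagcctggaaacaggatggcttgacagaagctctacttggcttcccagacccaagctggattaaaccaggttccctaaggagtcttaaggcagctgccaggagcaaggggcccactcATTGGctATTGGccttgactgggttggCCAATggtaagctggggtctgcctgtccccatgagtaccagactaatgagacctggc
Plin1: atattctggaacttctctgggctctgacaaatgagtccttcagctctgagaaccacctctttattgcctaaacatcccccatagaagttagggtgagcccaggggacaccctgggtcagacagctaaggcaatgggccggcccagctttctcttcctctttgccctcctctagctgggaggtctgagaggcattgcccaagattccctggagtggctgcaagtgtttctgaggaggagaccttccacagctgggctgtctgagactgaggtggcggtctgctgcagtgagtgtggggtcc
Lep: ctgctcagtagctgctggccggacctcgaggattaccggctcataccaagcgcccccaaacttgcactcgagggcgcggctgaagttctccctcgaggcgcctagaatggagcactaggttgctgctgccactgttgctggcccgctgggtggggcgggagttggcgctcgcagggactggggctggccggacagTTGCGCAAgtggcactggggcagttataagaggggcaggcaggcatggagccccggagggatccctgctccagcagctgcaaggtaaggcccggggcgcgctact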

How the data were processed

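Poly(A)-selected RNA of skeletal muscle was sequenced in 14 libraries. The authors deposited a table with the raw count of reads on each gene. The authors also deposited FPKM, in which counts are divided by gene length and a scaled library total. The submitters' processing notes name HISAT2 2.0.5, featureCounts 1.5.0-p3 and the mm10 genome; whether counting used the strand is not stated. Differences were tested on the counts in edgeR 4.0.16 (R 4.3.3), after TMM scaling and filterByExpr (15458 genes kept), using the quasi-likelihood test on 4 group means. Benjamini-Hochberg adjustment covered all tested genes in each comparison. They measure only the spread between these samples, since the labels do not say that the libraries came from separate animals. Calls need a fold over 1.5 and a p under 0.05, adjusted or unadjusted as stated. Standard errors were derived from the log2 fold change and its F statistic. The genes named are the 10 members, listed genes that were called, and the 12 genes most correlated with Adipoq in log2 CPM (prior count 2). The members and the gene lists were chosen with earlier results of these data known. Replicate numbers were checked as a pairing by correlating deviations from group means across genes: 0.385, 0.123 and 0.203 for the CT groups, which rests on the data alone, and values not all over 0.1 for the other comparisons. Alternatives were RLE scaling, DESeq2 1.42.0, limma 3.58.1 on log2(FPKM + 1) or log2(FPKM + 0.1) and with a mean FPKM of at least 1, no filter, the compared groups alone, a replicate block, exchanged names of CT-WD and OE-CTD, and omission of each library. Those added after seeing the data were omission of both CT libraries numbered 1 and of both OE libraries numbered 4, the sum of Adipoq, Plin1 and Cidec, and the alternatives applied to unadjusted counts and to listed genes. Figures used Python 3.11.15 and matplotlib 3.10.9. The procedure was tested on simulated counts with independent libraries and changes set only in OE-WD. That simulation held no library pairs or shared codes, so it does not bear on those doubts. Depth was between 21833839 and 28519159 counts a library.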

Additional observations from a re-analysis of the deposited data

Results flagged for a closer look

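In 6 of 88 groups of 4 libraries examined, 1 library lay far from the other 3. None of the 6 was a group of values of an adipocyte member, and chance picks about 1 in 20 such groups. Triglyceride synthesis genes summed to 1374 CPM in OE-CTD 3, where the next highest library of the group had 989 CPM. Adipokine receptors summed to 748 CPM in OE-CTD 4, with 611 CPM next, and skeletal muscle markers to 213683 CPM in the same library, with 161332 CPM next. In OE-WD 4, not among the 6, they summed to 218380 CPM, with 172603 CPM next. Macrophage markers summed to 114 CPM in OE-WD 2, with 72.6 CPM next. Ucp1 stood at 2.84 CPM in OE-WD 1 and at 0 in the other OE-WD libraries, and Myc at 9.03 CPM in OE-WD 1, with 5.74 CPM next. Groups of 3 were not examined in this way.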

How the results depend on the processing

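Each of the 10 genes was refitted in the 5 comparisons, which gives 50 values. With RLE scaling 50 of 50 kept their direction and side of the adjusted threshold, with DESeq2 48, without the filter 46, with a replicate block 46, with limma 48 and with the compared groups alone 40 of 40, since the interaction could not be fitted there. The fewest kept them with exchanged names and on omission of both CT libraries numbered 1, 36 and 36 of 50, and 45 of 50 did on omission of both OE libraries numbered 4. In the list below the comparisons are CT diet, OE diet, genotype on WD, genotype on CTD and interaction, and where a value differs the cause was not tested.

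Counts of the 10 genes are followed here by the share of all genes in brackets. Adjusted counts differed for genotype on WD, with 2 (2%) by DESeq2, 2 (1.44%) without the filter and 5 (6.35%) without both CT libraries numbered 1, and for genotype on CTD, with 2 (2.04%) without the filter. Unadjusted counts in CT diet were 1 (3.07%) with RLE scaling, 4 (2.98%) without the filter, 1 (2.35%) with limma on log2(FPKM + 0.1), 2 (7.12%) with exchanged names and 5 (5.05%) without both CT libraries numbered 1. In OE diet they were 1 (2.39%) without the filter and 2 (5.74%) with exchanged names. For genotype on WD they were 4 (5.06%) without the filter, 0 (1.37%) with exchanged names and 6 (12.2%) without both CT libraries. For genotype on CTD they were 1 (2.15%), 1 (6.32%) and 1 (3.08%) in the limma settings with log2(FPKM + 1), log2(FPKM + 0.1) and the mean filter, 0 (3.05%) with exchanged names, 1 (9.37%) without both CT libraries and 1 (8.19%) without both OE libraries numbered 4, and for the interaction 2 (3.24%) without the filter and 4 (4.74%) without both CT libraries. The ratio of the highest to the lowest summed level was 2.64 from FPKM and 9.02 from Adipoq, Plin1 and Cidec, in place of 2.04.

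Log2 fold changes turned sign when CT-WD and OE-CTD traded names: in CT diet Lep 1.95, Plin4 -0.52, in OE diet Adipoq 0.46, Lep 2.55, Cfd -0.58, Plin1 0.91, Plin4 -0.74, for genotype on WD Adipoq -0.10, Lep -0.87, Cfd 0.54, Plin1 -0.31, Plin4 0.23, Lpin1 0.30, Col15a1 -0.052, and for genotype on CTD Lep -1.47, Plin4 0.44, Col15a1 -0.014. Without both CT libraries numbered 1 they turned for CT diet in Fabp4 0.17, Lipe 0.047, for genotype on WD in Cfd 0.56, for genotype on CTD in Adipoq 0.38, Retn 0.56, Plin1 0.53, Cidec 0.33, Lipe 0.021, and for the interaction in Lipe -0.090. Without both OE libraries numbered 4 they turned for OE diet in Retn -0.18, Cidec -0.19, for genotype on CTD in Adipoq 0.073, Plin1 0.18, and for the interaction in Lipe -0.0068. With limma Plin1 turned to 0.015 for genotype on CTD (log2(FPKM + 0.1)). In the interaction limma gave Lep -0.13 and Fabp4 0.00087 with log2(FPKM + 1), with or without the mean filter, and Fabp4 0.0011 with log2(FPKM + 0.1).

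With the replicate block, which pairs libraries by number, the unadjusted count in CT diet was 1 (3%). The values that turned sign were Cfd 0.0013 for genotype on WD, Adipoq 0.18 and Plin1 0.28 for genotype on CTD, and Fabp4 0.014 in the interaction. Calls of listed genes were also lost outside the single-library omissions. For genotype on WD these were Lpin1 with the compared groups alone, the replicate block, limma on log2(FPKM + 1), limma on log2(FPKM + 0.1), limma with the mean filter, exchanged names and omission of both OE libraries numbered 4; Srebf1 with the compared groups alone, exchanged names and omission of both OE libraries numbered 4; Col15a1 with the compared groups alone, limma on log2(FPKM + 1), limma on log2(FPKM + 0.1), exchanged names and omission of both OE libraries numbered 4. For genotype on CTD they were Cyp2e1 with limma on log2(FPKM + 1), limma on log2(FPKM + 0.1), limma with the mean filter, exchanged names, omission of both CT libraries numbered 1 and omission of both OE libraries numbered 4; Cd34 with limma on log2(FPKM + 1), limma on log2(FPKM + 0.1), limma with the mean filter, exchanged names and omission of both CT libraries numbered 1; Pi16 with limma on log2(FPKM + 1), limma on log2(FPKM + 0.1), limma with the mean filter and exchanged names; Col15a1 with exchanged names.

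Leaving out 1 library at a time, the unadjusted counts ranged from 0 to 7 in CT diet, 0 to 0 in OE diet, 1 to 5 for genotype on WD (adjusted 0 to 4), 1 to 3 for genotype on CTD and 0 to 5 for the interaction. Values that crossed 0 had these ranges. In CT diet: Retn -1.92 to 0.24, Cfd -1.36 to 0.63, Fabp4 -0.22 to 0.16, Lipe -0.19 to 0.12. In OE diet: Adipoq -0.30 to 0.16, Plin1 -0.60 to 0.059, Fabp4 -0.25 to 0.058, Pparg -0.23 to 0.082, Cidec -0.10 to 0.41, Lipe -0.095 to 0.0045. For genotype on WD: Cfd -1.01 to 0.56. For genotype on CTD: Adipoq -0.45 to 0.37, Retn -1.27 to 0.55, Plin1 -0.44 to 0.52, Cidec -0.65 to 0.32, Lipe -0.30 to 0.015, Pparg -0.10 to 0.22. For the interaction: Lep -0.53 to 1.80, Cfd -0.10 to 1.90, Fabp4 -0.24 to 0.14, Lipe -0.17 to 0.15. Small counts limit Lep, Retn and Adipoq in the libraries where they are lowest. The other values kept their sign under every single-library omission, over these ranges. In CT diet: Adipoq -2.02 to -0.19, Lep -2.67 to -0.34, Plin1 -2.44 to -0.70, Plin4 0.25 to 0.61, Cidec -1.82 to -0.30, Pparg 0.022 to 0.38. In OE diet: Lep -1.19 to -0.46, Retn 0.027 to 0.51, Cfd 0.35 to 0.71, Plin4 0.10 to 0.31. For genotype on WD: Adipoq 0.010 to 1.80, Lep 2.12 to 3.75, Retn 0.29 to 1.45, Plin1 0.50 to 2.08, Plin4 -0.91 to -0.56, Cidec 0.36 to 1.65, Fabp4 -0.40 to -0.24, Lipe -0.26 to -0.071, Pparg -0.40 to -0.038. For genotype on CTD: Lep 1.54 to 3.08, Cfd -1.68 to -0.48, Plin4 -0.71 to -0.36, Fabp4 -0.47 to -0.089. For the interaction: Adipoq 0.085 to 1.92, Retn 0.055 to 2.21, Plin1 0.39 to 2.13, Plin4 -0.38 to -0.023, Cidec 0.38 to 1.90, Pparg -0.51 to -0.10.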
